A study of Sus scrofa with 48 samples.

Results

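Interleukins and chemokines are secreted proteins through which leukocytes and tissue cells signal to each other, and each acts through receptors on the surface of the responding cell. Interleukin receptors signal mainly through JAK kinases and STAT factors, or, in the IL1, IL18 and IL17 families, through adaptor proteins that lead to NF-kB. Chemokines bind receptors coupled to G proteins and draw leukocytes into a tissue, and resident macrophages of skeletal muscle are known sources of many of them.

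The genes described here were every interleukin, chemokine and receptor named on the array: probes whose gene symbol was IL followed by a digit, or began with CCL, CCR, CXCL or CXCR followed by a digit. Of 60305 distinct probes, 159 carried such a name, for 90 genes. A probe was kept where its spot was well above background on 12 or more of 48 arrays, which left 95 probes of 60 genes, among 42125 probes that passed the same filter. The kept probes were 18 for 13 interleukins, 20 for 13 interleukin receptors, 39 for 21 chemokines, 17 for 12 chemokine receptors and 1 for IL4I1, an enzyme named for its induction by IL4. The other 30 genes were not well above background on enough arrays. They included IL6 (at most 7 arrays for any of its 4 probes), IL2, IL4, IL7, IL13, IL17A and the receptors IL2RA, IL2RG and IL7R.

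The arrays held RNA of longissimus muscle, the loin muscle, from 48 pigs of lines selected in opposite directions for residual feed intake (RFI), the feed eaten beyond what growth and maintenance predict. The low RFI line (RFIneg) and the high RFI line (RFIpl) were purebred Large White. Pigs of both lines ate ad libitum, either a diet high in fat and fibre (HF) or one low in both (LF), with 12 pigs in each of the 4 groups. Each line is a single selected population, so a difference between lines cannot be told apart from drift or relatedness within a line.

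Values are log2 intensities of single probes relative to the mean of the tested probes on the same array, so that 0 is that mean and a difference of 1 is a 2-fold change. The level of one probe cannot be set against that of another. Between 59.2% and 74.2% of all probes were well above background on an array, and 66 of the 95 probes described here were so on all 48 arrays. All 77 tested probes of 10 muscle fibre genes were well above background on every array, as the tissue label requires. The arrays lay on 6 slides of 8, with 2 pigs of each group on every slide, scanned on 2 days. Arrays were 1 per pig, and their number limits the precision.

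The probes are 60 bases long, and several of one gene can read the same stretch. The 3 probes of IL18, the gene with the largest line difference among the kept probes, are shown because they tell independent from repeated evidence: capitals mark the 42 bases that 2 of them share, while A_72_P652365 shares no stretch longer than 5 bases with either.
IL18 probe A_72_P232887: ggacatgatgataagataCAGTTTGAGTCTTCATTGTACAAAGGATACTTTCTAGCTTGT
IL18 probe O14565: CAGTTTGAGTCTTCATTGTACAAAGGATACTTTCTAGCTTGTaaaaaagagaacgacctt
IL18 probe A_72_P652365: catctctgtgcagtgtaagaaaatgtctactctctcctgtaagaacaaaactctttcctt

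For IL4R and CCL25, 2 probes of one gene gave different results, and the first 30 bases of each are shown to identify them.
IL4R probe A_72_P003526: gaggagagtggaagggaaagcatggagttt
IL4R probe A_72_P088511: tctcaagggagggtaagatccccccgtgct
CCL25 probe A_72_P088121: cccaccagaagcagcaagaggaaagcctcc
CCL25 probe O475: aagcttcagttttttcccaggatgtgcctg

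IL17RB and IL12RB2 fell on their only kept probe, which is therefore shown whole.
IL17RB probe A_72_P437769: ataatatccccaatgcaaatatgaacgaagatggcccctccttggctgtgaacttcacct
IL12RB2 probe A_72_P077956: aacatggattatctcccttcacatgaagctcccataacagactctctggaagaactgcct

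In total the 95 probes held 90 distinct sequences, since 5 pairs under different names are the same 60 bases. Where genes had 2 or more kept probes there were 46 pairs in 25 genes. After the group means were subtracted, the 5 pairs of identical sequence correlated across pigs with r from 0.25 (IL6R) to 0.99 (CCL2), and their line differences lay 0.00046 to 0.21 apart. The 36 pairs that shared at most 7 bases had a median r of 0.73 and line differences 0.079 apart at the median, up to 0.77 for CCL25. In 8 of those 36 pairs the line differences had opposite signs. Over all 46 pairs, 38 Pearson and 36 Spearman correlations passed an adjusted p of 0.05 (permutation tests).

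The first question was whether the members differed between the selection lines. Of the 95 probes, 18 were called at an adjusted p under 0.05 (limma), which is 18.9%, beside 16.4% of all tested probes. By direction, 14 were higher in the high line (14.7%, beside 6.57% of all tested probes) and 4 were lower (4.21%, beside 9.85%). The 14 included probes of IL18, IL10, CCL2, CCL8, CXCL2, CCR1, IL4R and IL13RA1, and the 4 belonged to CCL25, CCL17, IL17RB and IL12RB2. The median line difference was 0.12 over the members and -0.03 over all tested probes. The share called was thus near that of all probes, while the split between directions was the other way round. For dim probes that split is not independent of the filter, which was the same for all tested probes. A dim probe can pass it through the line in which it is higher. Of the 18 called probes, 7 were not well above background on every array, among them CXCL2 O8155, CCL8 A_72_P441594 and IL10 O12249, all called higher. In whole muscle, more cells of a type and more RNA per cell cannot be told apart. In none of the 18 did the values of the lines stop overlapping.

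**Figure D1:**
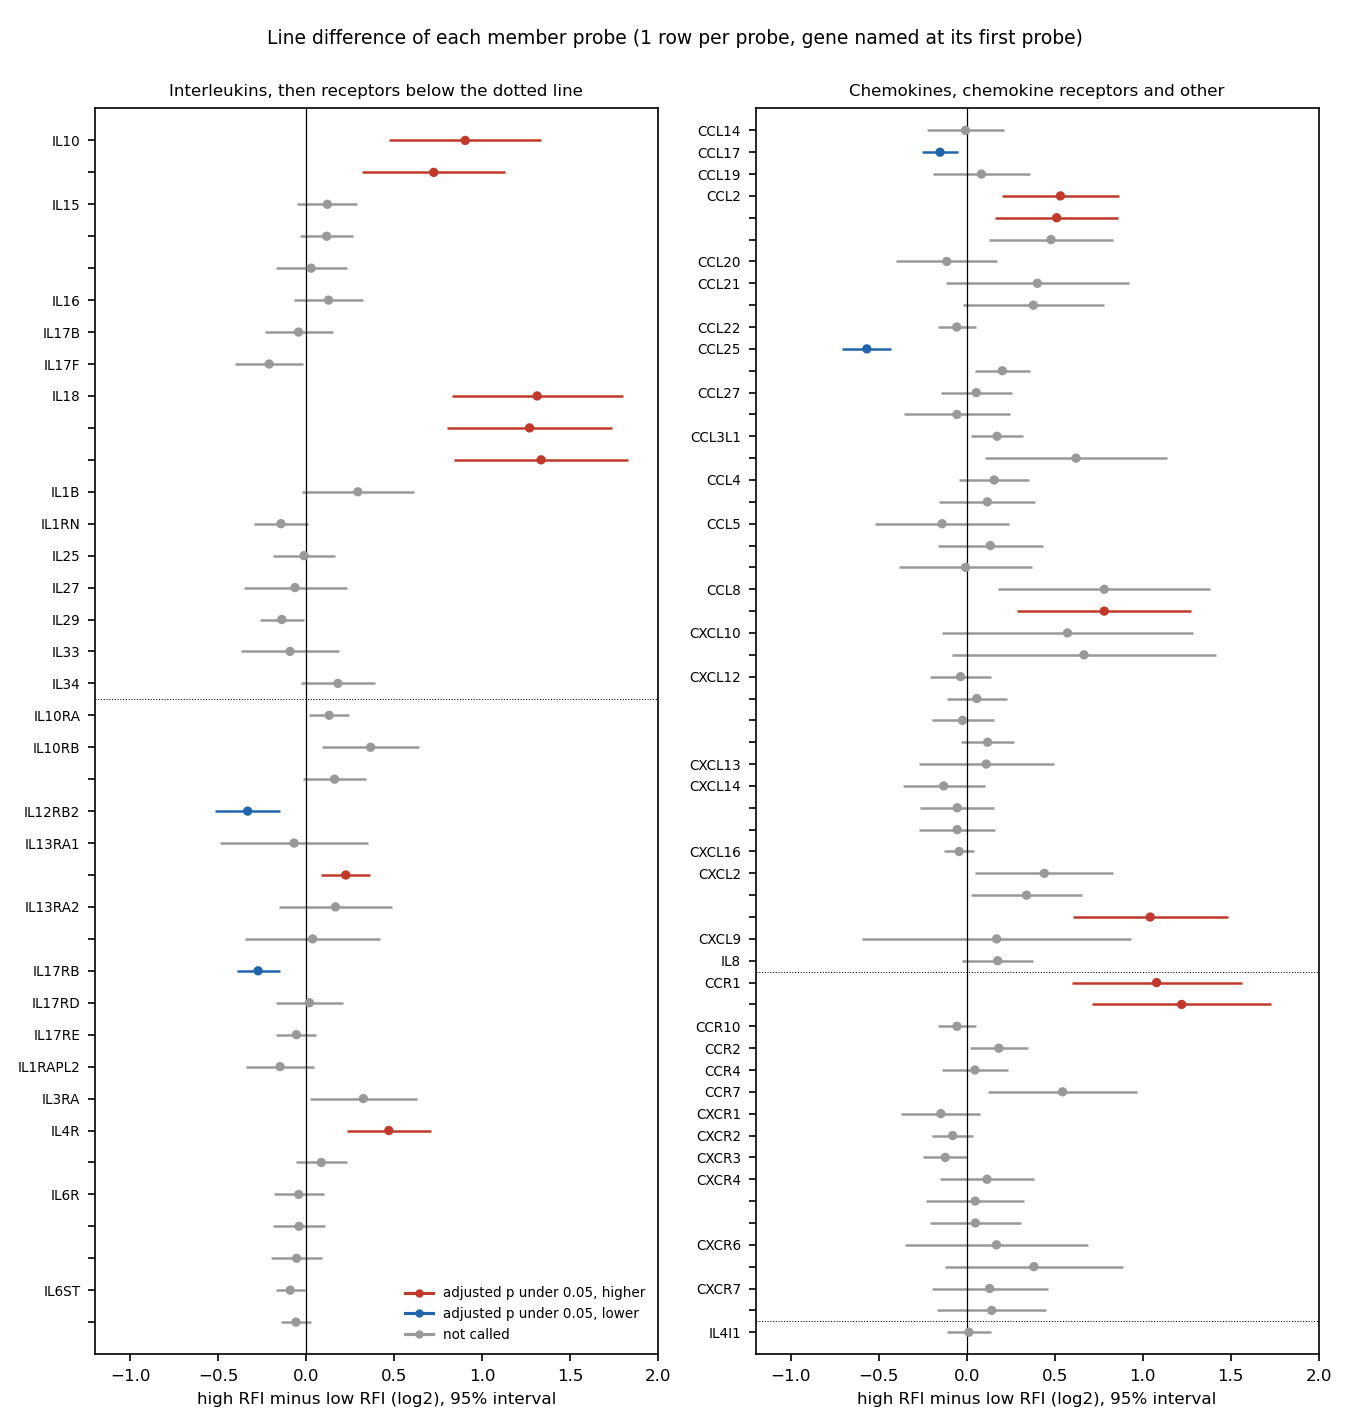
Line difference (high minus low RFI line, log2, averaged over diets) of 94 of the 95 probes with its 95% interval, grouped by role; red and blue mark the 13 drawn probes called higher and the 4 called lower. The 3 IL18 probes lie furthest to the right, from 1.27 to 1.34, and the CCL25 probe furthest to the left, at -0.57.

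Among the interleukins, 5 of 18 probes were called (27.8%, beside 16.4% of all tested probes), all 5 higher in the high RFI line. They were the 3 probes of IL18, a cytokine of the IL1 family that is cleaved to its active form by the inflammasome, and both kept probes of IL10, which restrains inflammatory responses of macrophages. Among LF pigs, IL18 probe O14565 read from -2.03 to 0.82 (median -0.56) in the low line and from -0.78 to 2.31 (median 1.06) in the high line. Among HF pigs it read from -1.78 to 0.57 (median -1.21) and from -1.67 to 1.64 (median 0.34). High RFI pigs were the higher ones on both diets with overlap, and 21 of 24 stood above the median low RFI pig.

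The IL18 line difference was 1.34 (SE 0.24, adjusted p = 0.000178), a 2.52-fold higher intensity with a 95% interval from 1.79 to 3.55. The mean was -0.78 ± 0.75 (SD, n = 24) in the low RFI line and 0.56 ± 1.02 (SD, n = 24) in the high RFI line. The overlapping probe A_72_P232887 gave 1.31 (adjusted p = 0.000187) and the separate probe A_72_P652365 gave 1.27 (adjusted p = 0.000192). Across pigs the separate probe followed both others with r = 0.99. The IL18 receptor chain IL18R1 was not kept (1 array). All 6 slides gave a higher IL18 value in the high RFI line, from 0.84 to 1.78 for O14565, and the scan days gave 1.29 and 1.39.

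IL10 probe A_72_P185331 was well above background on 36 arrays: 7 of 12 low RFI pigs against 10 of 12 high RFI pigs on the LF diet, and 7 against 12 on the HF diet. It read from -4.47 to -2.55 (median -3.49) and from -4.41 to -1.71 (median -2.62) in the low and high lines among LF pigs, and from -5.21 to -1.89 (median -4.12) and from -3.92 to -0.94 (median -3.22) among HF pigs. Of 24 high RFI pigs, 22 stood above the median low RFI pig, although the ranges overlapped. The difference was 0.90 (SE 0.22, adjusted p = 0.0031), and the second probe, O12249, gave 0.73 (SE 0.20, adjusted p = 0.0107). O12249 was well above background on only 16 arrays, and most low RFI pigs were not among them. With another background correction (normexp, which compresses dim signals) the kept IL10 probes gave 0.31 (adjusted p = 0.00948) and 0.10 (adjusted p = 0.138), and in the deposited table A_72_P185331 gave 0.45 (adjusted p = 0.00542).

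The other 13 interleukin probes were not called, and their differences ran from -0.21 to 0.29. The smallest unadjusted p among them belonged to IL29, an interferon lambda, with -0.14 (adjusted p = 0.126), IL17F with -0.21 (adjusted p = 0.126) and IL1RN, the soluble antagonist of the IL1 receptor, with -0.14 (adjusted p = 0.193). IL15, a myokine that muscle fibres make, gave 0.03 to 0.12 on its 3 probes. IL1B, on 1 probe that was well above background on 21 arrays, gave 0.29 (adjusted p = 0.198).

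**Figure D2:**
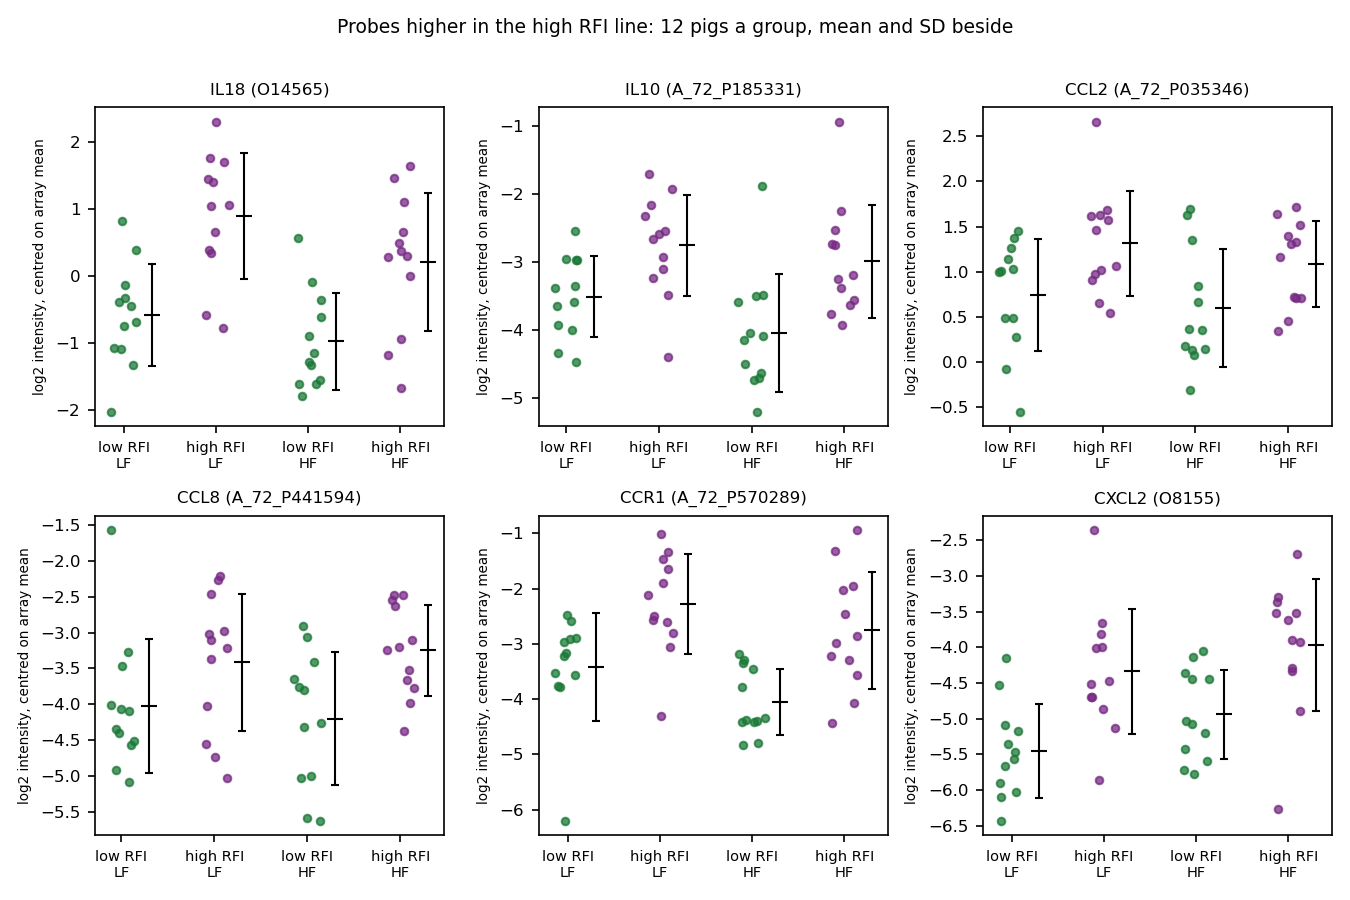
Centred log2 intensity of 6 probes called higher in the high RFI line, 1 point per pig in each line and diet group (n = 12), with the group mean and SD beside the points; each panel has its own scale. High RFI pigs (purple) sit above low RFI pigs (green) on average on both diets, with overlap in every panel.

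Of the 20 interleukin receptor probes, 2 were called higher and 2 lower (20% called, near the 16.4% of all tested probes). IL4R is the receptor chain shared by IL4 and IL13, which turn macrophages to their alternative state and act on muscle progenitors. Its probe A_72_P003526 read from 1.23 to 2.80 (median 1.68) in the low line and from 1.76 to 2.96 (median 2.18) in the high line among LF pigs, and from 1.31 to 2.48 (median 1.79) and from 1.67 to 2.84 (median 2.34) among HF pigs. Of the high RFI pigs, 23 of 24 lay above the median of the low RFI line, and 12 low RFI pigs lay below every high RFI pig. The line difference was 0.51 among LF and 0.43 among HF pigs, and no slide reversed it (0.06 to 0.83). Neither within-diet value passed the threshold alone (adjusted p = 0.0884 and 0.102).

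The second IL4R probe, A_72_P088511, did not follow the first. Its line difference was 0.087 (95% interval -0.057 to 0.23, adjusted p = 0.427), and after group means were subtracted the probes correlated with r = 0.17 (rho = 0.22, adjusted permutation p = 0.25, n = 48). Both were well above background on all 48 arrays, and they shared no more than 6 bases. The array files assign them to different transcript entries, so the IL4R result rests on 1 of its 2 probes.

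IL13RA1 pairs with IL4R in the receptor for IL13, and its 2 probes also parted. Probe O12698 gave 0.23 (SE 0.070, adjusted p = 0.0206), with the low line from 2.26 to 2.83 (median 2.60) and the high line from 2.30 to 3.42 (median 2.75) among LF pigs, and from 2.01 to 2.96 (median 2.44) and from 2.27 to 3.11 (median 2.58) on the HF diet. This shift was small beside the range, although 18 of 24 high RFI pigs exceeded the low RFI median. Probe A_72_P088561 gave -0.068 (adjusted p = 0.86), and 1 low RFI pig on the HF diet read 1.17 there while the median of its group was -3.11. Without that pig the difference turned to 0.11. IL13RA2, the decoy receptor for IL13, gave 0.17 and 0.038, neither called.

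IL17RB, which binds IL17B and IL25, had the smallest p of the receptor probes that fell. Among LF pigs its probe read from 4.68 to 5.22 (median 4.95) in the low line and from 4.31 to 5.09 (median 4.71) in the high line, and among HF pigs from 4.67 to 5.59 (median 5.09) and from 4.43 to 5.03 (median 4.79). Just 2 of 24 high RFI pigs exceeded the low RFI median. The difference was -0.27 (SE 0.061, adjusted p = 0.00172), a 0.828-fold intensity, and all 6 slides had the same sign. IL12RB2, the chain that gives the IL12 receptor its signalling, read from -2.47 to -1.46 (median -2.01) in the low line and from -2.85 to -2.07 (median -2.32) in the high line among LF pigs. On the HF diet it read from -2.37 to -1.55 (median -1.92) and from -3.26 to -1.70 (median -2.19). Its difference was -0.33 (SE 0.092, adjusted p = 0.0102), again in the same direction on all 6 slides. It was -0.18 with normexp and -0.22 in the deposited table, still called in both.

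Among the uncalled receptor probes, those with the smallest unadjusted p were IL10RB A_72_P441858 with 0.37 (adjusted p = 0.0561, but called with slide as a block, adjusted p = 0.0381), IL10RA with 0.13 (adjusted p = 0.0967) and IL6ST, the signal-transducing chain of the IL6 family, with -0.090 (adjusted p = 0.125). IL10RA and IL10RB together form the receptor for IL10. The 3 IL6R probes gave -0.053 to -0.040. IL17RE, a receptor for IL17C, gave -0.054 (adjusted p = 0.542).

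Among the chemokines, 6 of 39 probes were called, 4 higher and 2 lower (15.4% called, near the 16.4% of all tested probes). CCL2 and CCL8 are monocyte attractants whose genes lie in one cluster, with CCL11 the only gene listed between them in the pig RefSeq annotation (Sscrofa11.1). CCL2 probe A_72_P035346 read from -0.55 to 1.45 (median 1.0) in the low line and from 0.54 to 2.66 (median 1.27) in the high line among LF pigs, and from -0.31 to 1.69 (median 0.36) and from 0.35 to 1.72 (median 1.23) among HF pigs. The groups overlapped, with 21 of 24 high RFI pigs above the low RFI median. Its difference was 0.53 (SE 0.16, adjusted p = 0.0212). The 2 CCL2 probes of identical sequence lay on either side of the threshold, with 0.51 (adjusted p = 0.037) and 0.48 (adjusted p = 0.0516), and the called one lost its call in 15 of the 48 fits that left out 1 array.

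CCL8 gave 0.78 on both kept probes. For A_72_P441594 the adjusted p was 0.0234, and for A_72_P308453 it was 0.065. The first was well above background on 3 of 12 low RFI and 8 of 12 high RFI pigs on the LF diet, and on 5 and 10 on the HF diet. It thus passed the filter mostly through high RFI pigs. It read from -5.08 to -1.57 (median -4.22) in the low line and from -5.03 to -2.21 (median -3.16) in the high line among LF pigs, and from -5.62 to -2.91 (median -4.03) and from -4.38 to -2.47 (median -3.22) on the HF diet. One low RFI pig on the LF diet held the highest value of all 48. With the normexp correction the difference was 0.15 (adjusted p = 0.123).

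CXCL2, a neutrophil attractant from a group of close paralogs, had 3 kept probes. The dim probe O8155, well above background on 15 arrays (1 of 12 in each low RFI group, 5 and 8 of 12 in the high RFI groups on the LF and HF diets), gave 1.04 (SE 0.22, adjusted p = 0.000913). It read from -6.43 to -4.15 (median -5.52) and from -5.86 to -2.36 (median -4.49) in the low and high lines among LF pigs, and from -5.78 to -4.06 (median -5.05) and from -6.27 to -2.69 (median -3.76) on the HF diet. Most low RFI values were thus not well above background, and the probe passed the filter through the high RFI pigs. The other CXCL2 probes, well above background on all arrays, gave 0.44 (adjusted p = 0.113) and 0.34 (adjusted p = 0.129). With the normexp correction the dim probe gave 0.13 and was no longer called (adjusted p = 0.0671).

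CCL25 attracts thymocytes and gut-homing lymphocytes through CCR9, and CCR9 itself was not kept here (at most 6 arrays). CCL25 probe A_72_P088121 had the smallest p of all the members. It read from 1.78 to 2.43 (median 2.03) in the low line and from 1.14 to 1.96 (median 1.41) in the high line among LF pigs, and from 1.8 to 2.43 (median 2.18) and from 1.21 to 2.23 (median 1.49) among HF pigs. The lines were nearly apart: 21 of 24 high RFI pigs lay below every low RFI pig, and 1 lay above the low RFI median. The difference was -0.57 (SE 0.070, adjusted p = 1.68e-07), a 0.675-fold intensity (95% interval 0.612 to 0.743). It was -0.54 among LF and -0.59 among HF pigs, and from -0.63 to -0.46 on the 6 slides.

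The second CCL25 probe, O475, ran the other way without being called, at 0.20 (adjusted p = 0.0664), and the 2 probes correlated with r = -0.25 (rho = -0.27, adjusted permutation p = 0.099). The fall of CCL25 thus rests on 1 of its 2 probes. CCL17, a ligand of CCR4, had 1 kept probe and a small fall of -0.15 (SE 0.050, adjusted p = 0.0299): on the LF diet it read from 2.68 to 3.14 (median 3.03) in the low and from 2.68 to 3.23 (median 2.88) in the high line, and on the HF diet from 2.83 to 3.32 (median 3.1) and from 2.41 to 3.08 (median 2.91). Low RFI pigs were the higher ones by median on both diets, with overlapping ranges. The call was lost under quantile normalization (adjusted p = 0.0595), with normexp (adjusted p = 0.0619) and with no filter on dim probes (adjusted p = 0.0683).

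**Figure D3:**
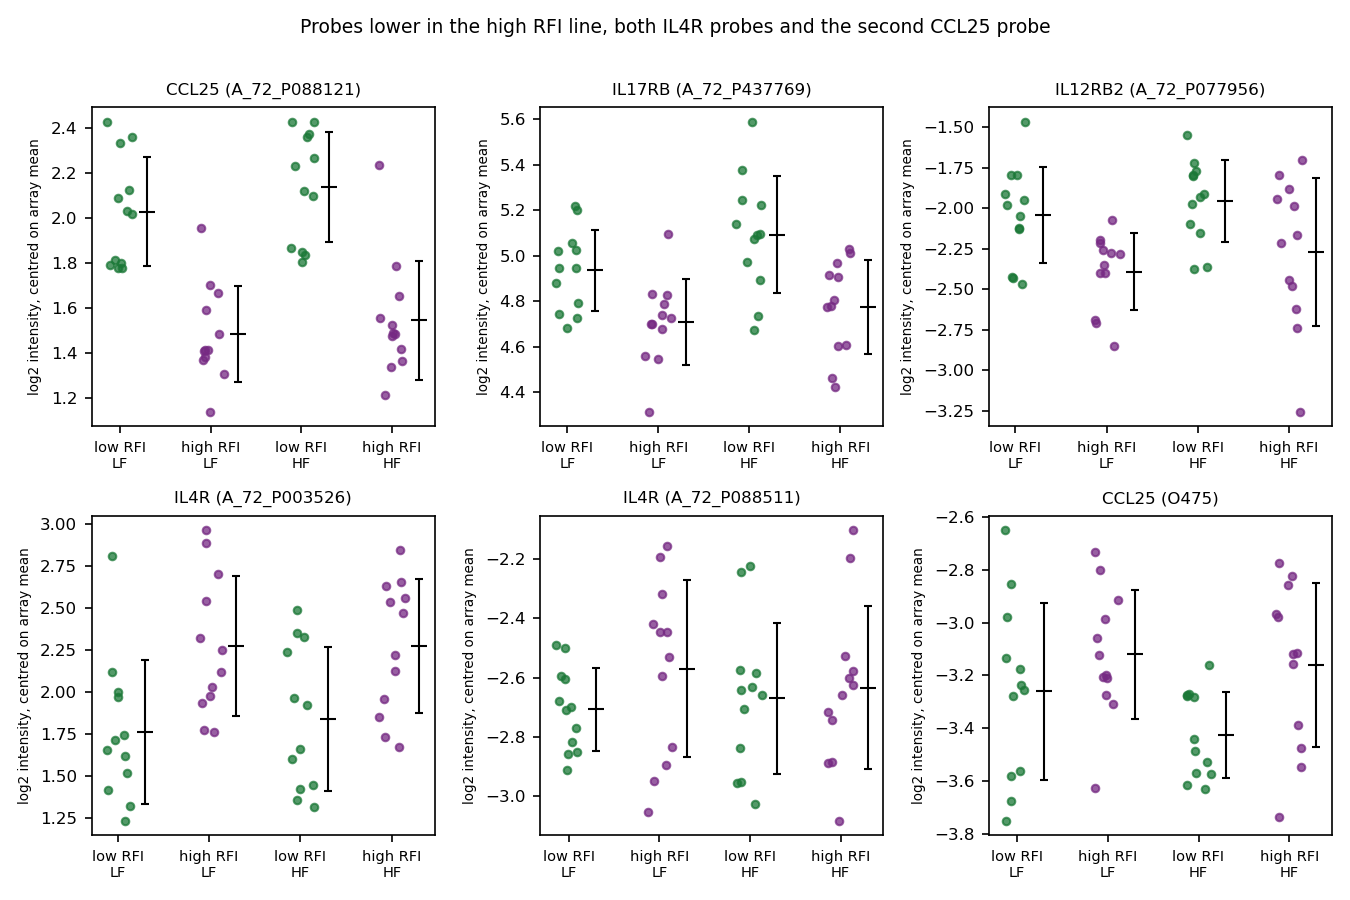
Centred log2 intensity per pig (n = 12 a group, mean and SD beside) of 3 probes that fell in high RFI pigs and of both IL4R probes and the second CCL25 probe. The CCL25 probe A_72_P088121 nearly separates the lines, while O475 does not, and IL4R differs on A_72_P003526 (0.47) but not on A_72_P088511 (0.087).

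Some large differences missed the threshold, and the genes given here were picked after their values were seen. CXCL10, an interferon-induced attractant of T cells, gave 0.57 and 0.67 on its 2 probes (adjusted p = 0.271 and 0.218), with an SD within groups of 1.27 and 1.33. CXCL9, which binds the same receptor CXCR3, had the widest spread of the 95 probes (SD within groups 1.36). CCL3L1 probe O1921 gave 0.62 (adjusted p = 0.0892). CXCL12, which retains cells through CXCR4 and is made by stromal cells, gave -0.035 to 0.12 on its 4 probes.

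Of 17 chemokine receptor probes, 3 were called (17.6%, near the 16.4% of all tested probes), all higher, among them both kept probes of CCR1. This receptor is carried by monocytes and macrophages and binds inflammatory ligands such as CCL3 and CCL5. CCR1 probe A_72_P570289 was well above background on 10 of 12 low and 11 of 12 high RFI pigs on the LF diet, and on 5 and 10 on the HF diet. It read from -6.19 to -2.47 (median -3.20) in the low line and from -4.31 to -1.01 (median -2.30) in the high line among LF pigs, and from -4.84 to -3.19 (median -4.36) and from -4.42 to -0.95 (median -2.91) on the HF diet. One low RFI pig stood above the high RFI median, and 11 high RFI pigs stood above every low RFI pig.

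The CCR1 difference was 1.22 (SE 0.25, adjusted p = 0.000775), a 2.33-fold intensity (95% interval 1.64 to 3.32), and the other probe, which shares 28 bases with it, gave 1.08 (SE 0.24, adjusted p = 0.00163). Under the normexp correction both CCR1 probes stayed called but shrank to 0.45 and 0.40, and in the deposited table A_72_P232432 gave 0.54, so the size of the CCR1 difference depends on the processing.

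CCR2, the receptor for CCL2, is listed near CCR1, with CCR3 alone between them. It gave 0.18 (SE 0.082, adjusted p = 0.122), and was not called. CCR7, which guides dendritic cells and lymphocytes to lymph nodes, gave 0.54 (adjusted p = 0.0672) and was called with slide or scan day as a block (adjusted p = 0.0446 and 0.0455). CXCR3 gave -0.12 (adjusted p = 0.175). The 3 CXCR4 probes gave 0.048 to 0.12. Among the inflammatory chemokines, the CCL4 probes gave 0.12 and 0.16 and the 3 CCL5 probes -0.14 to 0.13, none called. IL4I1 gave 0.012 (adjusted p = 0.92).

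Genes through which these receptors signal were followed in lists. Of 56 probes for 15 of 16 JAK and STAT pathway genes, 8 rose and 4 fell in high RFI pigs (21.4% called, beside 16.4% of all tested probes), with a median of 0.02. STAT3, the factor below IL10 and IL6, rose on 2 of its 5 probes (0.47 and 0.30), while the other 3 gave -0.058 to 0.066. STAT6, the factor below IL4R, rose by 0.16 on 1 of 3 probes, and the others gave -0.12 and 0.22. JAK2 moved both ways on its 3 probes, by 0.22 on one and -0.34 on another. TYK2 fell on 2 of 5 probes (-0.28 and -0.20), but an uncalled one gave 0.48 (adjusted p = 0.0864), so the probes of these genes did not share a direction. STAT2 rose on called probes by 0.17, 0.20 and 0.25, and its other probes gave -0.065 to 0.18. STAT5A rose (0.21) and JAK3 fell (-0.14) on 1 probe each, with their other probes uncalled.

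Of 42 probes for 20 of 21 genes of IL1, IL18 and NF-kB signalling, 8 were higher and 6 lower (33.3% called, beside 16.4% of all tested probes, median 0.07). MYD88, the adaptor that IL1 and IL18 receptors recruit, rose on 2 probes (0.33 and 0.53, adjusted p = 0.00888 and 0.000805), as did the kinase IRAK4 (0.23 and 0.19). The kinase IRAK1 went the other way (-0.30). Further along the same pathway, TRAF6 fell on 2 probes (-1.08 and -0.21), and so did its partner TAB2 (-0.28 on both). The other called probes of the list did not share a direction. IKBKB rose by 0.59 on a probe well above background on 17 arrays and by 0.31 on another, and its uncalled probe gave 0.13. NFKBIE rose by 0.58. IRAK2 gave 0.57 on a called and -0.030 on an uncalled probe, and NFKBIB gave -0.17 on a called and -0.12 on an uncalled probe.

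Of 36 probes for 17 of 19 genes of chemokine receptor signalling, 8 were higher and 0 lower (22.2% called, median 0.06). Of all tested probes 16.4% were called, 6.57% higher and 9.85% lower. The 8 higher probes included those of ARRB2, the arrestin that takes active receptors off the membrane (0.47 and 0.32), and of the G protein subunit GNAI3 (0.22 and 0.21 on 2 of 3 probes). GNAI2 rose on 1 of 5 probes (0.19), and the others gave -0.27 to 0.14. PIK3CG, the kinase below G protein subunits in leukocytes, rose by 0.63 on a probe well above background on 24 arrays, while its other probe, so on all 48, gave 0.22 (adjusted p = 0.248). Of 35 probes for 20 of 30 other cytokine and receptor genes, 7 were higher and 2 lower (25.7% called, beside the same 16.4%, median 0.01). CX3CR1, the fractalkine receptor of monocytes, rose by 0.96 (SE 0.23, adjusted p = 0.00339) and CSF1R, the receptor that macrophages need to survive, by 0.94 (SE 0.21, adjusted p = 0.00201). TNF fell by 0.17 on 1 of 3 probes (the others -0.11 and -0.10), and the chemokine XCL1 fell by 0.71 on 1 of 3 (the others -0.65 and -0.49).

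Markers of the leukocytes that could carry these transcripts were read beside the members. Of 19 probes for 8 general leukocyte markers, 6 were higher and 0 lower in high RFI pigs (31.6% called, beside the 16.4% of all tested probes), with a median difference of 0.42. The called ones included every TYROBP probe, while no probe of PTPRC, LCP1, LAPTM5 or CORO1A was called. The summed linear level of the leukocyte markers ran from 35.04 to 49.8 (median 42.3) in low and from 35.6 to 66.5 (median 49.2) in the high line among LF pigs. Among HF pigs it ran from 32.6 to 46.95 (median 39.4) and from 32.6 to 89.6 (median 39.8). These nearly equal summed medians do not show equal marker levels, since the sum is weighted to its brightest probe (line difference -0.026). Probe by probe, the median line difference was 0.42 on the HF and 0.40 on the LF diet. On each diet 17 of the 19 leukocyte marker probes were positive. Of 15 probes for 6 of 7 macrophage markers, 7 were higher and 0 lower (46.7% called), with a median of 0.44. The summed level of the macrophage markers ran from 8.10 to 23.4 (median 15.6) and from 9.80 to 26.7 (median 18.8) among LF pigs. It ran from 6.85 to 17.7 (median 12.0) and from 9.21 to 49.8 (median 13.6) on the HF diet. The called ones were of CD14, AIF1, CD163 (1 of its 6 probes) and CSF1R (the last also among the other cytokine receptors above), and ITGAM had no tested probe.

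Markers of other cell types were read the same way, beside 6.57% of all tested probes called higher and 9.85% called lower. Of 18 T and NK cell probes, 0 were called (summed level 9.09 to 16.01 on the LF diet and 8.48 to 13.2 on the HF diet), and CD4, CD8B, ZAP70 and PRF1 had no tested probe. Of 5 B cell probes, 1 was higher (CD79B) and 1 lower (PAX5). The CD79B probe was well above background on only 12 arrays, the fewest the filter allows, and the uncalled CD79A and MS4A1 probes gave -0.098, -0.094 and 0.15. Of 4 granulocyte probes, 1 was lower (ELANE), while JCHAIN, MPO and S100A9 had no tested probe. Of 77 muscle fibre probes, 20 were lower (25.97%) and 0 higher (median -0.09). Adipocyte markers had 8 of 25 probes higher (32%), all of FABP4, fibroblast markers 4 of 26 (15.4%), of COL1A1 and COL1A2, and endothelial markers 2 of 16 (12.5%), of TEK, with 0 lower in each.

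Many members varied with leukocyte markers among pigs of one group, whether or not they differed between lines. After group means were subtracted, 35 of the 95 probes correlated positively and 5 negatively with the mean leukocyte marker level at an adjusted permutation p under 0.05 (n = 48, 95 relations). The smallest positive r that passed was 0.35, and 36.8% of the members lay at or above it, beside 8.04% of the 42106 tested probes outside the marker list. On the negative side, 5.26% of the members lay at or below -0.37, the weakest negative r that passed, beside 8.41% of those 42106 probes. Negative relations were thus no more frequent among the members than among other probes. Of the 77 members without a called line difference, 23 were among the 35 (29.9%). The 14 probes called higher all had a positive r (median 0.59) and 12 passed (85.7%), where 44.03% of all probes called higher reached the same r. The 4 called lower all had r between -0.46 and -0.37, and the share among all probes called lower is not given. IL10 A_72_P185331 had r = 0.80 (rho = 0.78, both permutation p = 1e-05, the smallest the permutations can give, adjusted p = 7.3e-05 and 7.9e-05), and 0.74 without the 2 pigs farthest from the median marker level. CCR1 had r = 0.70 and 0.77, while IL18 had r = 0.58 to 0.59.

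Among the probes called higher, those of IL4R and CXCL2 did not pass. The CXCL2 probe is the dim one that passed the background filter through the high RFI pigs. IL4R A_72_P003526 had r = 0.080 (rho = 0.028, adjusted permutation p = 0.728 and 0.886), and CXCL2 O8155 had r = 0.11 (rho = 0.13, adjusted permutation p = 0.61 and 0.524). IL16, a chemoattractant that binds CD4, and CCL5 had r of 0.75 (1 probe) and 0.52 to 0.70 (3 probes) without a called line difference. By rank, CCL17 and IL12RB2 missed the threshold (both adjusted p = 0.0601), and their r weakened from -0.46 to -0.31 and from -0.45 to -0.22 without the 2 pigs farthest from the median marker level.

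**Figure D4:**
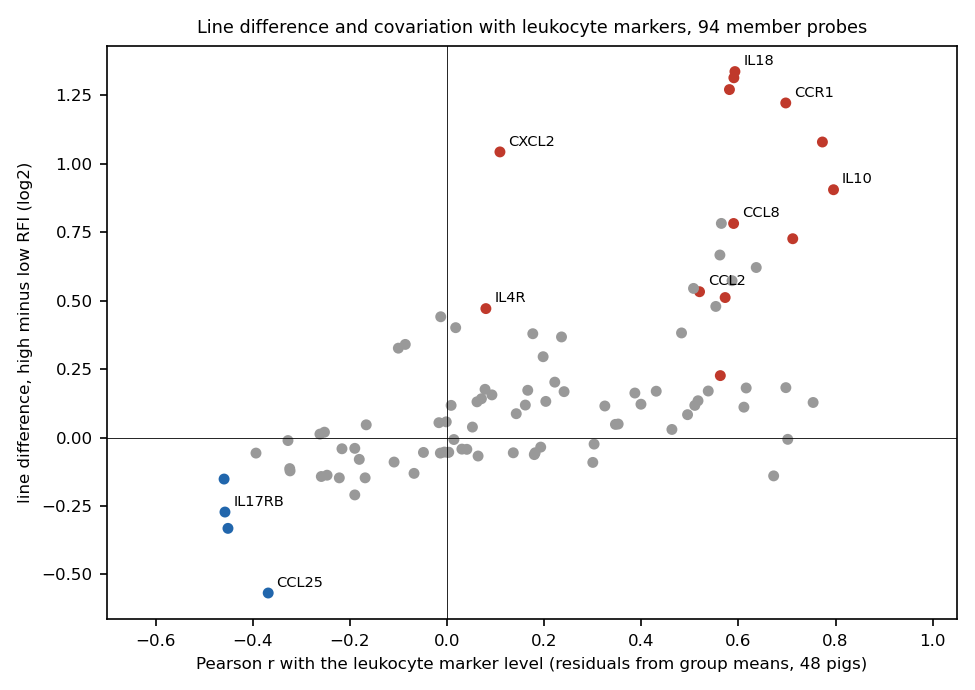
Line difference (log2, y axis) of 94 of the 95 probes against its Pearson correlation with the leukocyte marker level across 48 pigs after group means were subtracted (x axis); red and blue mark probes called higher and lower. IL10 A_72_P185331 and CCR1 lie at r from 0.70 to 0.80, whereas IL4R (0.080) and the CXCL2 probe O8155 (0.11) lie near 0.

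A fit chosen after these values were seen, with the mean level of the 34 leukocyte and macrophage marker probes as a covariate, called 9 of the 95 probes, all of them among the 18 (9.47%, beside 5.94% of all tested probes), with 7 higher (7.37%, beside 2.34%) and 2 lower (2.11%, beside 3.59%). IL18 remained on all 3 probes, at 0.88 to 0.91 (adjusted p = 0.00589 to 0.00656), and CCR1 on both, at 0.71 and 0.53 (adjusted p = 0.0226 and 0.0395). IL4R gave 0.45 (adjusted p = 0.0271), the dim CXCL2 probe O8155 0.95 (adjusted p = 0.00991), CCL25 -0.50 (adjusted p = 7.93e-06) and IL17RB -0.20 (adjusted p = 0.0399). Among those no longer called were IL10 (0.39 and 0.30), CCL2 (0.30 and 0.24), CCL8 (0.35), IL13RA1 (0.12), IL12RB2 (-0.20) and CCL17 (-0.083). Whether leukocyte content produced any of these differences was not tested.

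The line difference was next read within each diet. All 18 called probes had the same sign on both diets. On the HF diet 10 of the 95 probes were called, 7 higher and 3 lower (beside 6.39% of all tested probes, 2.36% higher and 4.03% lower): IL18, CCR1, IL10 A_72_P185331 and CXCL2 O8155 were higher and CCL25, IL17RB and CCL17 lower. On the LF diet 5 were called, 4 higher and 1 lower (beside 2.47%, 1.13% and 1.34%): the 3 IL18 probes, CXCL2 O8155 and CCL25. CXCL2 O8155, called on both diets, is the dim probe that passed the filter through the high RFI pigs. The HF count changed with single pigs: it fell to 2 without HF_RFIpl replicate 6, 3 without HF_RFIpl replicate 8, and 5 without HF_RFIpl replicate 5 or HF_RFIneg replicate 11. Among the fits without 1 array it reached 14 at most, and the LF count rose to 8 without LF_RFIpl replicate 9. The share of all tested probes called within a diet in those fits is not given. These changes therefore cannot be told apart from a shift over all probes. Averaged over diets, that share ran from 14.4% to 18.7%.

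A call on one diet and not on the other was not a difference between diets. The interaction of line and diet was called for 0 of the 95 probes and for 0% of all tested probes (limma), with 2 member probes at an unadjusted p under 0.05 beside 4.45% of all tested probes. Those were IL17RE, at -0.28 (p = 0.0175), and IL1RN, at -0.35 (p = 0.0249), and both had an adjusted p of 0.999. For IL18 the line difference was 1.49 among LF and 1.19 among HF pigs (interaction -0.30, unadjusted p = 0.545).

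**Figure D5:**
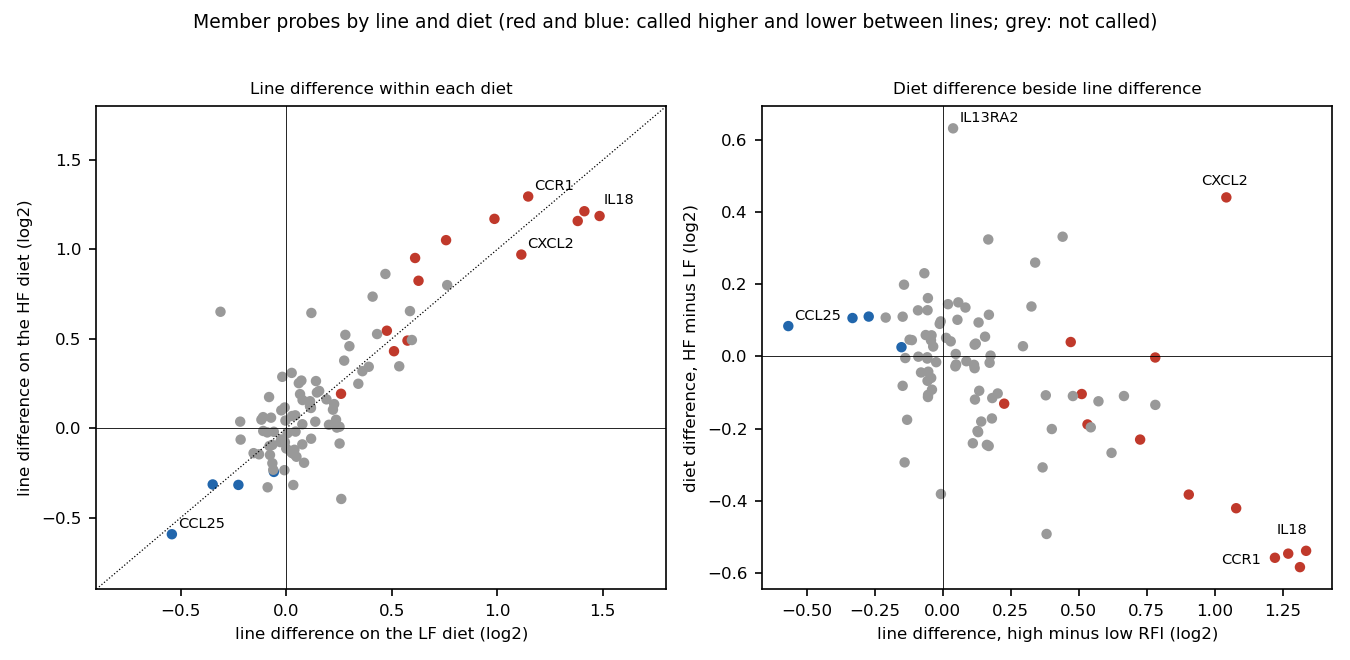
Left, the line difference of 94 of the 95 probes on the HF diet against that on the LF diet (log2; dotted line, equal values); right, the diet difference (HF minus LF, log2) against the line difference, with red and blue for probes called higher and lower between lines. All called probes keep their sign on both diets, and 0 probes were called for diet, the largest diet difference being 0.63 for IL13RA2.

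The diet comparison, averaged over the lines, called 0 of the 95 probes, beside 0.420% of all tested probes (limma), and the per-probe variance analysis also called 0. At an unadjusted p under 0.05 there were 12 of the 95 probes, beside 13.1% of all tested probes. The smallest p belonged to the dim IL13RA2 probe O8507, whose diet difference (HF minus LF) was 0.63 (SE 0.19, adjusted p = 0.113): it read from -5.73 to -3.39 (median -4.47) on the LF and from -4.83 to -2.79 (median -3.91) on the HF diet in low RFI pigs, and from -5.52 to -3.26 (median -4.51) and from -5.25 to -2.83 (median -3.73), in the same order, in the high line. Its groups overlapped widely, and the other kept IL13RA2 probe gave 0.32 (adjusted p = 0.373).

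IL18 and CCR1, which rose most between lines, had negative diet differences that did not pass the test, while CXCL2 O8155 had 0.44 (adjusted p = 0.382). IL18 gave -0.58 to -0.54 (adjusted p = 0.268 to 0.323) and CCR1 A_72_P570289 -0.56 (adjusted p = 0.322). The leukocyte and macrophage markers had the same sign there, with median diet differences of -0.39 and -0.34 and 0 probes called, and their part in these values was not tested. IL4R gave 0.040 and -0.013 for diet (adjusted p = 0.938 and 0.969). Within the low RFI line 0 of the 95 were called for diet (limma, beside 0.199%), with 4 at an unadjusted p under 0.05 (beside 11.6%), and within the high RFI line 0 (beside 0%), with 3 (beside 5.47%).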

How the data were processed

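RNA of longissimus muscle from 48 pigs was hybridised to one-colour Agilent 60-base arrays, 1 array per pig. Per the file headers, the scanner files hold spot intensities that Feature Extraction had background-subtracted and detrended within each array, with no scaling between arrays. The authors also deposited a table of log2 intensities of filtered spots, centred per array (R 2.10.0 in the submitters' processing notes), which was used as an alternative only. Groups came from the sample titles, which give line and diet. All titles carry the same replicate number, so no pigs were paired.

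From the scanner files, processed intensities were taken to log2, outlier spots were left out (1 value was missing among the members), spots of a probe were averaged, and each array was centred on its mean over the 42125 probes well above background on 12 or more arrays. limma 3.58.1 (R 4.3.3) fitted 4 group means over all tested probes, with Benjamini-Hochberg adjustment over all of them and a threshold of 0.05. The fit was tested on simulated data. Correlations were computed on residuals from the group means, with two-sided permutation tests (100000 permutations, Python 3.11.15, scipy 1.17.1). Summed marker levels add the linear centred values of a list's probes.

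Probe names are those of the array files, from whose accessions 48 of the 95 member probes matched a pig RefSeq symbol. Sequences are the probe sequences in the scanner files. Named were all called probes, all probes of a gene with a called probe, all probes of IL4R, the 3 uncalled probes of each role with the smallest unadjusted p of the line difference, and members with an unadjusted interaction p under 0.05. Others named for their biology were chosen after their values were seen. Members, gene lists and tests were chosen with earlier results of these data known. Alternatives covered scaling (quantile, 75th percentile, median), normexp background correction (offset 50), filters, outlier spots, slide and scan day as blocks, the deposited table, a per-probe variance analysis and leaving out each array. One member probe and 1 marker are counted in the totals but not reported by name here, and the member probe is not drawn.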

Additional observations from a re-analysis of the deposited data

How the results depend on the processing

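Without 1 array at a time, probes called between lines numbered 13 to 19 higher and 4 to 5 lower, against 14 and 4. Under the other settings without a covariate they numbered 11 to 16 and 3 to 4. With the leukocyte and macrophage marker level as a covariate, chosen after seeing the data, they numbered 7 and 2. On the HF diet the count of 10 became 5 with normexp, 2 with no filter on dim probes and 6 in the deposited table. The variance analysis gave 3, and without 1 array at a time the count ran from 2 to 14. The share of all tested probes called on the HF diet moved as well. It was 6.39% in the main fit, 4.297% with normexp, 1.33% with no filter, 7.33% in the deposited table and 2.996% in the variance analysis. Except in the deposited table, the lower HF counts thus came with a lower share of all probes. The deposited table gave no result for CCR1 A_72_P570289 and CXCL2 O8155, which were among the 10, so neither could be called there. It also gave none for CCL8 A_72_P441594 and IL10 O12249, called higher over both diets. Its counts of 6 on the HF diet and 11 higher over both diets are therefore not lost calls alone. On the LF diet the count of 5 ran from 4 to 8. Diet and interaction counts were 0 wherever run (the variance analysis gave no interaction, and the covariate was run for line only). Of the 18 called probes, 8 kept direction and call under every alternative that tested them: all IL18 and CCR1 probes, IL4R A_72_P003526, CCL25 A_72_P088121 and IL17RB. Leaving out 1 array ended 1 call, that of CCL2 A_72_P412643. IL4I1, near 0, turned to -0.00131 under quantile normalization and ran from -0.00688 to 0.034 without 1 array, and IL13RA1 A_72_P088561 ran from -0.11 to 0.11. The cause was not tested. Signal over background limits IL10 O12249, CCL8 and CXCL2 O8155, since most pigs of the low RFI line were not well above it. No paired analysis was possible because the titles carry 1 replicate number throughout.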

Other observations

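Of the 64 member probes left out for dim signal, 1 was called between lines in the fit without a filter (limma, beside 6.42% of all probes in that fit). It was the IL10 probe A_72_P440601, well above background on 4 arrays, so its difference has no measured level behind it in most pigs. The probe with the next smallest p was of IL12RB1, the partner chain of IL12RB2, at -0.57 (SE 0.21, adjusted p = 0.0911), well above background on 9 arrays.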
